A study of Mus musculus with 2 samples.

Results

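The Polycomb group comprises chromatin proteins that hold genes silent, and 35 of their genes are described here: the subunits of Polycomb repressive complex 2 (PRC2), of Polycomb repressive complex 1 (PRC1) and of the Polycomb deubiquitinase complex (PR-DUB). They were chosen by name, not by their values, and all 35 symbols matched an Ensembl gene, out of 37820 genes in the gene table and 28013 genes that the transcript table gave after summing. The study profiled polyadenylated RNA of haematopoietic stem cells (HSCs), from which all blood lineages arise, in fetal liver at E14.5 and in the bone marrow of adults. The adult group consists of 2 samples from B6129SF1 mice aged 6 to 8 weeks, and no genotype change or treatment is named. The sources used here do not give the strain of the fetuses, the sort markers or the number of animals per library, and no separate fetal sample was analysed here. Values are the authors' FPKM (fragments scaled to feature length and to mapped fragments), with 1 column headed FL (fetal liver) and 1 headed BM (bone marrow) in each of the 2 tables. No replicate values were used, so the spread between libraries is unknown and no difference below carries a test. Sequencing depth cannot be read from FPKM and is unknown too.

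PRC2 methylates lysine 27 of histone H3 through its catalytic subunit, EZH2 or EZH1, with EED and SUZ12 needed for activity, and accessory proteins that direct it to chromatin. PRC1 places ubiquitin on a lysine of histone H2A through RING1 or RNF2 paired with a PCGF protein. Canonical PRC1 reads the PRC2 mark through a CBX protein, variant PRC1 carries RYBP or YAF2 instead, and PR-DUB removes the ubiquitin. In blood, EZH2 is known as the form of cycling and fetal cells and EZH1 as that of resting adult cells, and BMI1 and CBX7 are known for their role in HSC self-renewal.

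The columns of the transcript table, summed per gene, were compared first, and the BM column of the gene table served as a check of FL. For genes reaching 1 FPKM in both, the FL sum was 0.955 times the BM value of the gene table at the median, and 90.7% of 11077 genes lay within 1.5-fold of that ratio, as did 33 of the 35 Polycomb genes. The same header thus did not mark the same profile in both tables, and each value below is given with its table and header. Of 8 expressed fetal HSC-associated genes, all were at least 2-fold lower in BM than in FL of the transcript table, among them Dlk1 at 89.7 FPKM in FL against 2.17 in BM. Over all 12221 expressed genes 8.82% were that much lower. Some of the 8 reached 1 FPKM in FL alone, so a lower value in BM followed for these. BM of the gene table has Dlk1 at 92.6 FPKM and H19 at 525 FPKM, where BM of the transcript table has H19 at 5.78. Fetal HSC-associated genes were thus at the level of FL of the transcript table in the gene-table column headed BM, and the header of at least 1 table may be wrong. The Polycomb genes outside the 1.5-fold match were Rbbp4, whose linked transcripts summed to 4.43% of its gene-table value, and Aebp2, whose sum was 44.5% of it. Their differences in the transcript table thus describe only part of the gene. The sum for Ezh2 was 73.6% of the gene-table value, and the remaining 32 ranged upward from Phc3 at 85.4%.

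In the transcript table every one of the 35 Polycomb genes exceeded 1 FPKM in FL and BM, at 3.48 to 202 FPKM in FL (median 23.7 FPKM) and 5.61 to 158 FPKM in BM (median 22.6 FPKM). A relative log2 ratio was taken as log2 of BM over FL, with 0.1 FPKM added to each, minus the median of that value over genes reaching 1 FPKM in both. A gene reaching 1 FPKM in either column was called expressed, and was counted as higher or lower where this ratio reached 2-fold. By that count 3 members were higher in BM, namely Phf1, Cbx7 and Phc3, where 13.3% of 12221 expressed genes were. Cbx2 was the 1 lower member, against 8.82% of expressed genes. The other 31 members lay within 2-fold, or 88.6% of the list beside 77.9% of expressed genes. The median relative log2 ratio of all 35 members was 0.10, where that of all expressed genes was 0.02. In sorted populations such as these, fewer cells of a type and less RNA per cell cannot be told apart.

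**Figure D1:**
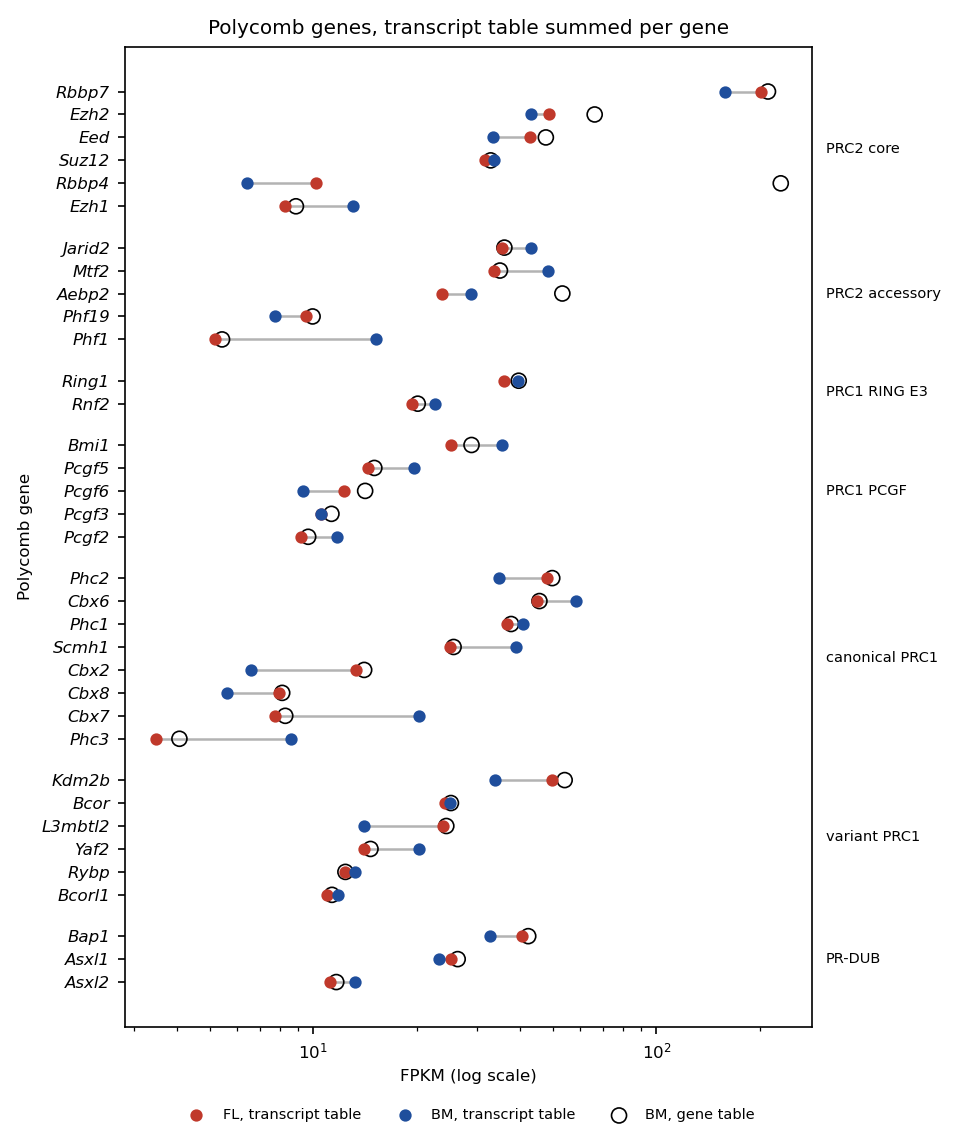
FPKM (log axis) of the 35 Polycomb genes by complex, with filled points for the FL and BM columns of the transcript table summed per gene and open circles for the gene table's BM values. The open circles lie close to the FL points except for Rbbp4 and Aebp2, and to a lesser degree Ezh2, and the widest gaps between FL and BM are those of Phf1, Cbx7 and Phc3.

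Among the PRC2 core genes the catalytic pair differed in opposite directions, each within 2-fold. Ezh1 was at 8.27 FPKM in FL against 13.1 in BM of the transcript table, with a relative log2 ratio of 0.65. Ezh2 was at 48.7 FPKM in FL against 43.2 in BM, with a ratio of -0.18. Ezh2 was thus the more abundant of the pair in both columns, by 5.89-fold in FL and 3.31-fold in BM, and the share of Ezh1 in their sum was 14.5% in FL and 23.2% in BM. With the gene table's BM value in place of FL, Ezh1 was at 8.90 FPKM and Ezh2 at 66.1 FPKM, and the share of Ezh1 was 11.9%.

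The difference in the catalytic pair was larger over the transcripts annotated as protein-coding. Coding transcripts made up 74.5% of Ezh1 in FL and 94.3% in BM, and 91.8% of Ezh2 in FL and 79.4% in BM. Ezh1 then stood at 6.16 FPKM in FL against 12.3 in BM, a relative log2 ratio of 1.01 that passes 2-fold, and Ezh2 at 44.7 and 34.3 FPKM, a ratio of -0.36. The ratio of Ezh2 to Ezh1 was 7.25 in FL and 2.78 in BM on this count, and the share of Ezh1 was 12.1% and 26.4%. This restriction was chosen after the data had been seen.

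The non-catalytic PRC2 core genes were within 2-fold. Eed, whose protein binds the methylated histone tail and stimulates the enzyme, was at 43.0 FPKM in FL against 33.5 in BM of the transcript table. Suz12, the scaffold subunit gene, was at 31.6 and 33.6 FPKM. Rbbp7, a histone chaperone gene shared with other chromatin complexes, was the most abundant Polycomb gene there, at 202 FPKM in FL against 158 in BM. Its paralogue Rbbp4 stood at 10.2 and 6.41 FPKM in the transcript table but at 230 FPKM in the BM column and 251 FPKM in the FL column of the gene table. No share of the chaperone pair can therefore be read from the transcript table. In the gene table Rbbp4 held 52.1% of the pair in BM and 61.8% in FL.

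Accessory subunits define the forms of PRC2. JARID2 and AEBP2 mark PRC2.2, and the Polycomb-like proteins PHF1, MTF2 and PHF19, which bind DNA and methylated lysine 36 of histone H3, mark PRC2.1. Phf1 showed the largest ratio of all 35 members, at 5.17 FPKM in FL against 15.3 in BM of the transcript table, a relative difference of 2.91-fold. The check column gave 5.42 FPKM, near the FL value. Mtf2 was the most abundant of this trio, at 33.6 FPKM in FL against 48.4 in BM, a relative log2 ratio of 0.52. Phf19 was the only one with a lower value in BM, at 9.53 and 7.73 FPKM. As a share of the trio, Phf1 was 10.7% in FL and 21.4% in BM, Phf19 was 19.7% and 10.8%, and Mtf2 was 69.6% and 67.8%. These shares count all linked transcripts, and coding transcripts were only 36.3% and 38.8% of the Mtf2 sum. Counted by coding transcripts alone, Mtf2 was at 12.2 and 18.7 FPKM and Phf19 at 7.56 and 6.70 FPKM, while Phf1, with a single coding transcript, was unchanged. For PRC2.2, Jarid2 was at 35.5 and 43.0 FPKM and Aebp2 at 23.7 and 28.8 FPKM, the latter from the 44.5% of the gene that was linked.

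Some of these genes share exons with a neighbour on the opposite strand, and the named library kit is not stated to keep strand. Phf1 overlaps Cuta, which was at 79.0 FPKM in FL against 65.2 in BM of the transcript table, a relative log2 ratio of -0.28. Cbx7 overlaps Apobec3, at 23.1 and 20.9 FPKM, a ratio of -0.16, but BM of the gene table gives Apobec3 83.5 FPKM, so these values describe only part of that gene. A further gene that overlaps Phf1, AC144621.3, was not analysed here. The part of reads from these neighbours in the values of Phf1 and Cbx7 was not tested. In all, 15 of the 35 members overlap an exon of another gene in GENCODE M21. Phc3 and Cbx2 overlap none.

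Promoter sequences of the 3 higher members and of the catalytic pair are given to show what lies before their starts. They are the 250 bases before each gene's start, from RefSeq on GRCm38.p6, a later build than the mm9 named for the files, printed 5′ to 3′ on the gene's strand. Capitals mark every match, on either strand, to GGGCGG, known for Sp and KLF factors, to CCGGAA, known for ETS factors, to TTTCGCG, known for E2F factors, to AGATAA, known for GATA factors, to TGTGGT, which RUNX factors bind, or the NRF1 palindrome, which is the longest run of capitals in the Phc3 window. In these windows no match overlaps another.
Phf1 (chr17:26932877-26933126, plus strand): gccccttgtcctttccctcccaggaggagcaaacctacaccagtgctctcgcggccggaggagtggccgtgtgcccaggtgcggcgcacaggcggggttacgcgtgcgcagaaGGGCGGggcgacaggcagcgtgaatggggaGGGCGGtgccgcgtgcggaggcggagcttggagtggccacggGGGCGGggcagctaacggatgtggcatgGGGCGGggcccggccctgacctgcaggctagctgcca
Cbx7 (chr15:79932647-79932896, minus strand): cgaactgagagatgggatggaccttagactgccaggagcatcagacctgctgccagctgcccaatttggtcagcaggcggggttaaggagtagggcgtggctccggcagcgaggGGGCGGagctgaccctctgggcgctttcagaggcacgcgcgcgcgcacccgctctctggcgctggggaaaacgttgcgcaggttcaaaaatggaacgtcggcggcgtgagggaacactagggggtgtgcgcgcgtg
Phc3 (chr3:30969416-30969665, minus strand): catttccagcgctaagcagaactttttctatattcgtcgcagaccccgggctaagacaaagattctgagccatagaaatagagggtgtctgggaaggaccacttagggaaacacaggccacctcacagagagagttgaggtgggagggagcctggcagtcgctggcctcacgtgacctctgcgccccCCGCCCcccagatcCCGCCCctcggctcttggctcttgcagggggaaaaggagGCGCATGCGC
Ezh1 (chr11:101226464-101226713, minus strand): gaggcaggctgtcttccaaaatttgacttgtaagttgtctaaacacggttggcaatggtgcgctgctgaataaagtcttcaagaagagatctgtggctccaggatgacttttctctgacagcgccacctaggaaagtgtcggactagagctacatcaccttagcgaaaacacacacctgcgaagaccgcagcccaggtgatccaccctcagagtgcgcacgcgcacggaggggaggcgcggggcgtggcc
Ezh2 (chr6:47595031-47595280, minus strand): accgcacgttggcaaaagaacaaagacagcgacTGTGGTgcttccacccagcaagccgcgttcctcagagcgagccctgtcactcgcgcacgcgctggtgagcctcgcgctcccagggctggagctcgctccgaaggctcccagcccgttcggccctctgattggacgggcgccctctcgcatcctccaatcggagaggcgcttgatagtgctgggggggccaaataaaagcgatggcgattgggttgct
The Phf1 window held 4 matches to GGGCGG, that of Cbx7 held 1 and that of Phc3 held 2 together with 1 NRF1 match. No match was found in the Ezh1 window, and the Ezh2 window held 1 match to TGTGGT. Of 32 members with a promoter in the table, 23 held GGGCGG (71.9%), where 32.7% of all 32851 promoters of this length did. TTTCGCG was found for 2 of them, Phf19 and Pcgf6 (6.25%, against 0.703% of all). AGATAA was found for 0 of 32, against 9.99% of all. CCGGAA was found for 15.6% against 12.0% of all, and TGTGGT for 18.8% against 14.0%. Polycomb gene promoters were richer in G and C, at a median of 66.2% against 52.4%. In all these comparisons each member counted by its first listed promoter, whereas the 32851 hold every distinct promoter listed for a gene. These matches are letters in a window and show no binding.

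The RING genes, which encode the ubiquitin ligase of every PRC1 form, were nearly level in the transcript table. Ring1 was at 36.0 FPKM in FL against 39.6 in BM, and Rnf2 at 19.3 and 22.6 FPKM. Ring1 held 65.1% of the pair in FL and 63.6% in BM, and 66.3% in the check column. The most abundant Ring1 transcript retains an intron, and coding transcripts made up 43.4% of the gene's sum in FL and 41.6% in BM. Counted by coding transcripts alone, Ring1 was at 15.6 and 16.4 FPKM, below Rnf2, whose single linked transcript is coding.

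PCGF proteins decide which PRC1 forms: BMI1 and PCGF2 assemble canonical complexes and the others variant ones. Bmi1 was the most abundant PCGF gene in the transcript table, at 25.1 FPKM in FL against 35.6 in BM, a relative log2 ratio of 0.49. Its alternative partner gene Pcgf2 was at 9.19 and 11.7 FPKM, so that Bmi1 exceeded Pcgf2 by 2.73-fold in FL and 3.04-fold in BM. Coding transcripts were 69.4% and 78.9% of the Bmi1 sum. Counted by coding transcripts alone, Bmi1 was at 17.4 and 28.1 FPKM (ratio 0.71) and Pcgf2 at 8.95 and 11.7 FPKM. Pcgf5 was at 14.4 and 19.6 FPKM, and Pcgf3 at 10.5 and 10.6 FPKM. Pcgf6, part of a germline-gene repressing complex, had the lowest ratio of the group (-0.40), at 12.3 and 9.33 FPKM. Pcgf1, which is not among the 35 genes, completed the family at 9.74 and 10.8 FPKM. Within the family Bmi1 took 30.9% in FL and 36.5% in BM, and Pcgf6 took 15.1% and 9.55%.

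The CBX proteins bring canonical PRC1 to methylated histone H3. Of the 4 CBX genes among the members, 1 was higher and 1 lower by at least 2-fold. Cbx7 was at 7.76 FPKM in FL against 20.3 in BM of the transcript table, 2.59-fold apart, with a check value of 8.29 FPKM. The 3 most abundant Cbx7 transcripts, all coding, each had more than 2 times the FPKM in BM that they had in FL. Cbx2 was at 13.3 FPKM in FL against 6.57 in BM, 2.02-fold apart and so barely past the cut, with a check value of 14.1 FPKM. Cbx2 exceeded Cbx7 by 1.72-fold in FL and was 0.323 times as abundant in BM, so the order of this pair differed between the columns. Cbx8, which lies next to Cbx2 in the genome, was also lower in BM, at 7.93 and 5.61 FPKM, within 2-fold.

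Cbx6 was the most abundant of the 4 CBX genes among the members in both columns, at 44.8 FPKM in FL against 58.2 in BM, or 60.7% and 64.1% of their sum. The share of Cbx7 in this sum was 10.5% in FL and 22.4% in BM, that of Cbx2 was 18.1% and 7.25%, and that of Cbx8 was 10.7% and 6.19%. The check column gave Cbx7 10.9% and Cbx2 18.5%, within 1 percentage point of the FL shares.

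**Figure D2:**
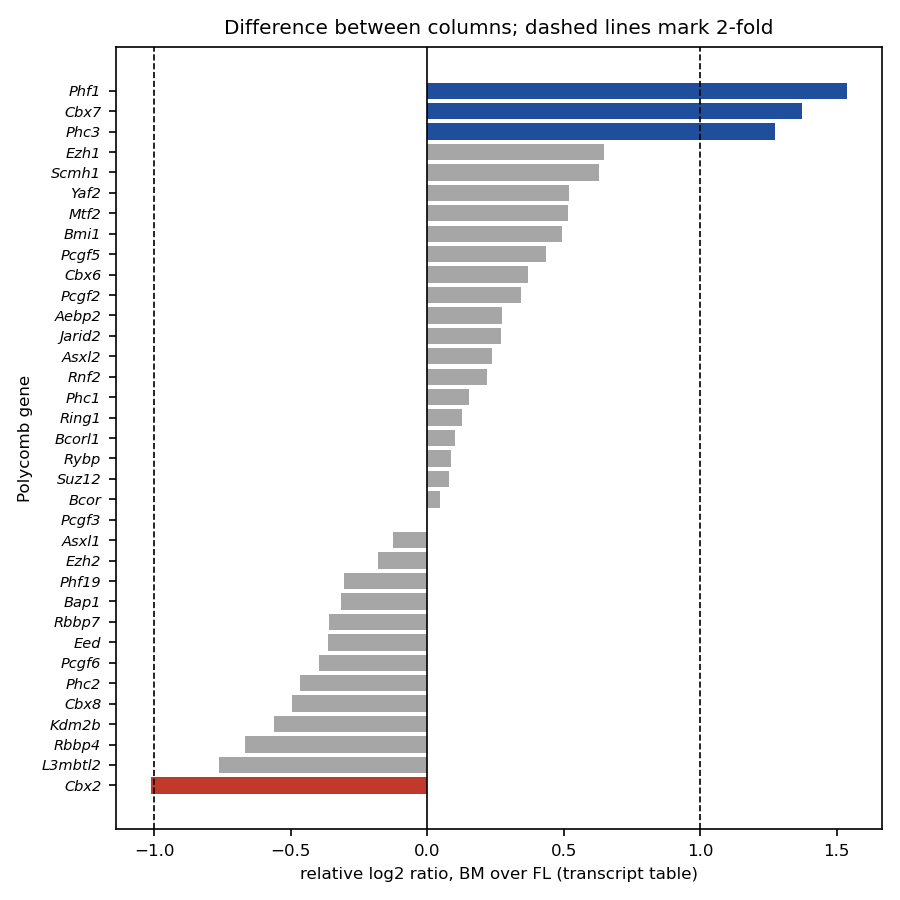
Relative log2 ratio of BM over FL in the transcript table for each Polycomb gene, with dashed lines at 2-fold, blue bars for genes past 2-fold higher in BM, a red bar for the gene past 2-fold lower and grey bars for the rest. Phf1, Cbx7 and Phc3 lie beyond the right line at 1.54, 1.37 and 1.28, and Cbx2 just beyond the left line at -1.01.

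Polyhomeotic genes encode the subunits that let canonical PRC1 complexes polymerise. Phc3 was the least abundant and the most different, at 3.48 FPKM in FL against 8.61 in BM of the transcript table, 2.42-fold apart, with 4.07 FPKM in the check column. Phc1 was at 36.6 and 40.9 FPKM and Phc2 at 47.9 and 34.8 FPKM. The leading gene of the trio was therefore Phc2 in FL, with 54.5%, and Phc1 in BM, with 48.5%. Phc3 took 3.95% and 10.2%. Scmh1, a gene for a further canonical PRC1 protein, was at 25.1 and 39.1 FPKM (ratio 0.63), of which coding transcripts were 48.2% and 41.2%.

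The 6 variant PRC1 genes among the members were all within 2-fold in the transcript table. Rybp, whose protein stimulates the ligase, was at 12.4 FPKM in FL against 13.2 in BM, and its paralogue Yaf2 at 14.1 and 20.3 FPKM. Counted by coding transcripts alone, Yaf2 was at 7.54 and 9.95 FPKM, below Rybp, whose single linked transcript is coding. Kdm2b, which recruits PRC1 to unmethylated CpG islands, was at 49.8 and 33.9 FPKM (ratio -0.56), of which coding transcripts were 72.8% and 90.2%. Counted by coding transcripts alone, Kdm2b was at 36.2 and 30.5 FPKM (ratio -0.22). L3mbtl2, a subunit of the PCGF6 complex, had the most negative ratio of the group (-0.76), at 23.8 and 14.1 FPKM. Other genes of that complex differed in either direction, with Pcgf6 at a ratio of -0.40 and Mga at 0.79 (15.3 and 26.6 FPKM), each within 2-fold. Tfdp1, which is not among the members, was lower past 2-fold at -1.58, from the 29.1% of its gene-table value that was linked. The corepressor genes Bcor (24.2 and 25.1 FPKM) and Bcorl1 (10.9 and 11.8 FPKM), which belong to the PCGF1 complex with Kdm2b, were nearly level.

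PR-DUB genes were also within 2-fold. Bap1, the deubiquitinase gene, was at 40.7 FPKM in FL against 32.8 in BM of the transcript table. Asxl1, whose protein activates BAP1 and which is often mutated in myeloid disease, was at 25.2 and 23.2 FPKM, and Asxl2 at 11.2 and 13.2 FPKM. Asxl1 held 69.4% of the pair in FL and 63.7% in BM.

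**Figure D3:**
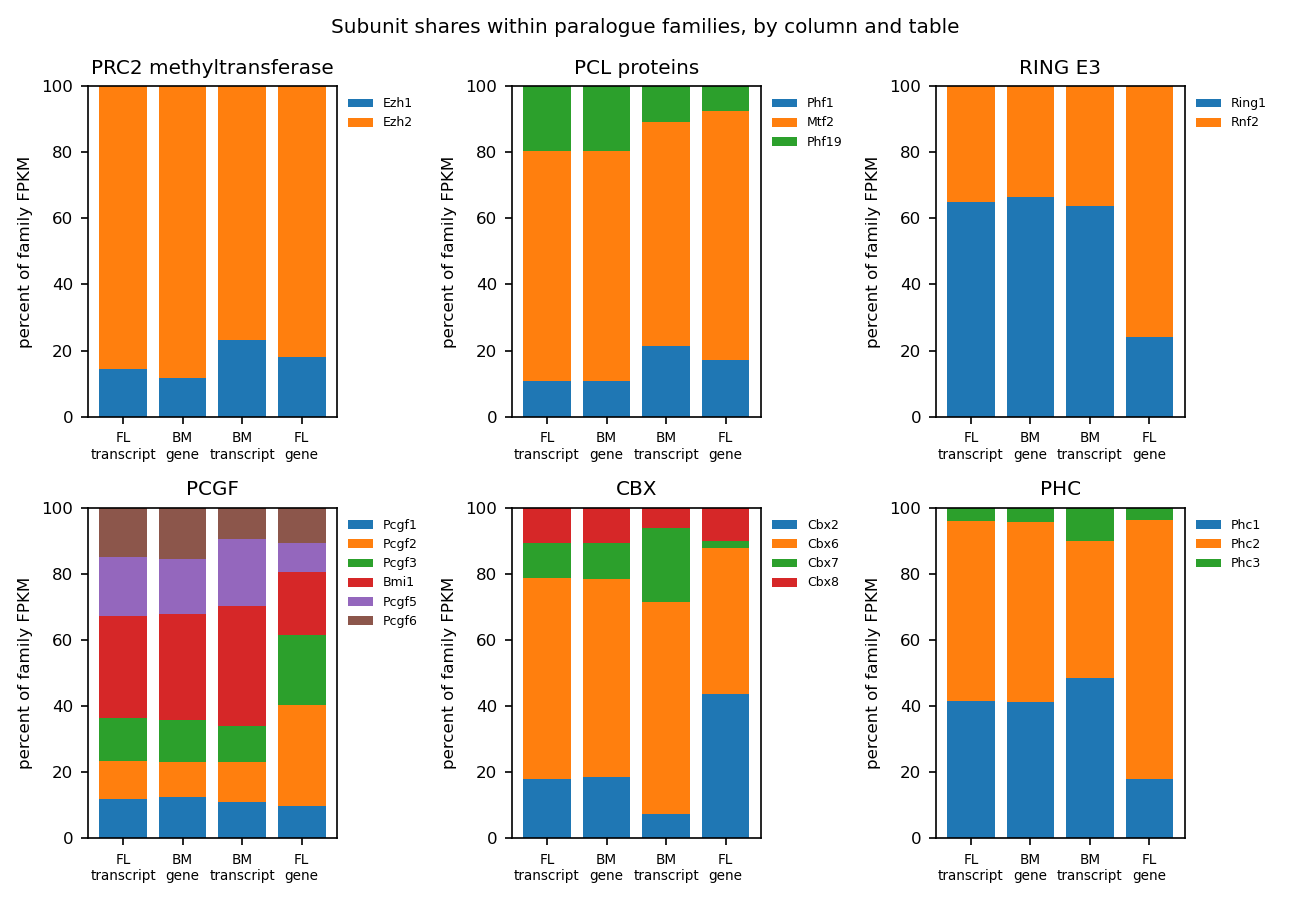
Stacked bars of each subunit's percentage of the summed FPKM of its paralogue family in the 4 columns, named by header and table. In the 6 families drawn the first 2 bars, FL of the transcript table and BM of the gene table, differ by under 3 percentage points for every subunit, and the third bar differs from them most in the CBX, PHC and PCL panels, with Cbx7 at 22.4% and Cbx2 at 7.25% there.

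Transcript usage was compared for the 30 members with at least 2 linked transcripts. A transcript was counted as moving where it took at least 20% of its gene in 1 column and its share differed by at least 20 percentage points. Ezh1 and Bcor had such a transcript, 6.67% of the 30, beside 19% of 7332 genes. The coding transcript Ezh1-203 took 60.7% of Ezh1 in FL (5.02 FPKM) and 88.3% in BM (11.5 FPKM). The non-coding Ezh1-206 was at 1.33 FPKM in FL against 0.0372 in BM. Bcor exchanged its leading transcript while its sum stayed level: Bcor-202 took 36.6% in FL and 2.44% in BM, and Bcor-204 took 8.38% and 44.4%. All 7 linked Bcor transcripts are annotated as coding. These shares are estimates by a model from overlapping transcripts, and no library-to-library spread is known for them.

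The most abundant transcript was the same in both columns for 27 of the 30, the exceptions being Bcor, Bcorl1 and Yaf2. Bcorl1-203 (coding) took 42.9% in FL and Bcorl1-205 (annotated for nonsense-mediated decay) 43.7% in BM. For Yaf2 the coding Yaf2-201 was at 53.6% in FL and the decay-annotated Yaf2-202 at 51.0% in BM, a near-even split in both. Mtf2, with 14 transcripts, was mostly annotated as non-coding, with coding shares of 36.3% in FL and 38.8% in BM. The median coding share over the 35 genes was 93.2% in FL and 90.8% in BM.

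**Figure D4:**
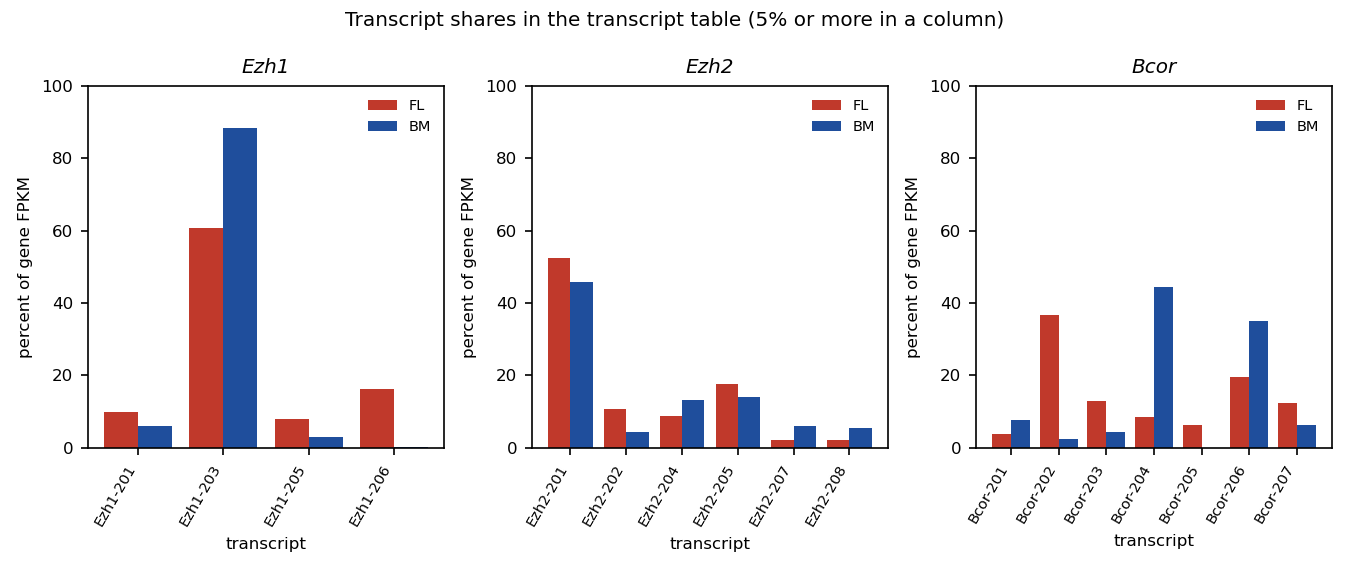
Percentage of the gene's FPKM taken by each transcript of Ezh1, Ezh2 and Bcor in the FL (red) and BM (blue) columns of the transcript table, for transcripts at 5% or more in a column. Ezh1-203 takes 60.7% in FL and 88.3% in BM, Ezh2-201 leads in both columns, and Bcor-202 and Bcor-204 trade places.

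Marker lists differed between the same columns, and their part in the Polycomb values was not tested. The counts below stand beside 8.82% lower and 13.3% higher in BM over all 12221 expressed genes. Of 21 proliferation genes 10 were lower and 0 higher in BM of the transcript table, with a summed level of 1717 FPKM in FL against 914 in BM and Cdk1 at 156 and 75.6 FPKM. The sum is incomplete for Pcna, at 13.9 FPKM in FL of the transcript table where BM of the gene table has 447, and for Mcm5, at 69.2 FPKM where it has 206. Erythroid markers summed to 855 FPKM in FL against 116 in BM (11 of 12 lower), where the check column gave 421, with Hbb-bt at 207 FPKM in FL of the transcript table and 69.2 in that column. Neutrophil and monocyte markers summed to 632 and 208 FPKM (9 of 12 lower) and macrophage markers to 205 and 6.85 FPKM (9 of 9 expressed lower). Most of these 9 macrophage genes reached 1 FPKM in FL alone, as did some erythroid, neutrophil and monocyte genes. For such genes a lower value in BM followed from that filter. The macrophage gene under 1 FPKM in both columns had the higher value in BM. Megakaryocyte markers summed to 143 FPKM in FL against 819 in BM, with 7 of 10 expressed higher and 0 lower. Of these lists the genes at 0 in BM were Alas2, Timd4 and Gp6, the last also at 0 in FL. Among genes of HSC identity, 4 of 13 were higher in BM and 0 lower, with Kit at 112 and 181 FPKM.

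Other genes of the Polycomb pathway came from a list of 46 symbols, of which 42 genes were expressed in the transcript table. Of these 4 were higher in BM and 2 were lower, where 13.3% and 8.82% of all expressed genes were. The other 36 were within 2-fold, or 85.7% beside 77.9% of all expressed genes. Their median relative log2 ratio, over the 42 genes, was 0.02. Ogt, whose product is a glycosyltransferase that binds PR-DUB, was at 44.5 FPKM in FL against 106 in BM. Scml4, a gene of the SCM family, was at 4.25 and 9.62 FPKM, and its relative Scml2 at 1.66 and 3.46 FPKM. Sfmbt2 was lower, at 1.65 and 0.747 FPKM. Epop, which encodes a further PRC2.1 partner, was just within 2-fold at 11.1 and 5.70 FPKM (ratio -0.96). Tfdp1, the partner gene of E2F6, was lower at 38.7 and 12.9 FPKM, but its linked transcript made up 29.1% of its gene-table value. The genes of enzymes that remove the Polycomb marks gave 1 higher of 6: Kdm6a, a histone H3 lysine 27 demethylase gene, at 3.13 and 6.97 FPKM, from 31.9% of its gene-table value. Mysm1, a histone H2A deubiquitinase gene needed in HSCs, was at 6.22 and 10.5 FPKM.

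Developmental genes known as Polycomb targets were close to silent in FL and BM of the transcript table. Of 22 with a linked transcript, 21 were under 1 FPKM in both, 11 were listed at 0 in FL and 19 in BM. Cdkn2a, the cell cycle inhibitor gene that Bmi1 represses in HSCs, was listed at 0 in both. Gata4 was the exception, at 1.31 FPKM in FL and listed at 0 in BM.

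The FL column of the gene table differed from the other 3 columns in markers of other cell types, and its Polycomb genes are described apart. All 11 endothelial markers were at least 2-fold higher in it than in BM of the gene table, with sums of 2955 and 179 FPKM, and all 10 stromal markers, with sums of 822 and 17.5 FPKM. Most of the stromal markers reached 1 FPKM in FL alone, so a lower value in BM followed from that filter. Of all 13834 expressed genes in the gene table, 23.6% were lower in BM and 12.3% higher. Cdh5, the endothelial cadherin gene, was at 457 FPKM in FL against 7.97 in BM. The HSC identity genes were mixed, with 6 of 13 higher in BM of the gene table, such as Kit at 35.5 FPKM in FL against 117 in BM, and 4 lower, such as Cd34 at 279 and 120 FPKM. The part of these markers' cells in the Polycomb values was not tested. Because BM of the gene table nearly equals FL of the transcript table, this comparison and the one above share a column and are not independent. Centring removed a shift of 0.24 (log2) in the median gene here, and 0.01 in the transcript table.

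Of the 35 genes, 4 were at least 2-fold higher in BM of the gene table, beside 12.3% of 13834 expressed genes. A further 4 were lower, beside 23.6%, and 27 were within 2-fold (77.1%), beside 64% of expressed genes. The median relative log2 ratio of the 35 was 0.29, where that of all expressed genes was -0.07. Cbx7 was the furthest apart, at 0.770 FPKM in FL against 8.29 in BM, and was the only member under 1 FPKM in any column. Ring1 was at 11.4 and 39.7 FPKM, Phf19 at 2.92 and 9.96 FPKM and Cbx6 at 16.8 and 45.6 FPKM. The lower members were Pcgf2 at 24.1 FPKM in FL against 9.67 in BM, Yaf2 at 33.8 and 14.7 FPKM, Rybp at 24.6 and 12.4 FPKM and Rnf2 at 35.9 and 20.2 FPKM. These counts rest on the centring. By FPKM alone Rnf2 and Rybp are within 2-fold, and further members, such as Eed at 22.4 and 47.6 FPKM, are past 2-fold higher in BM. Phc2 was just within 2-fold, at 83.5 and 49.7 FPKM.

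Some subunit pairs were ordered differently in that FL column, and in the CBX and PHC families the shares differed. Rnf2 exceeded Ring1 there, with 76.0% of the pair, against 33.7% in BM of the gene table and 36.4% in BM of the transcript table. Counted by coding transcripts alone, Rnf2 exceeded Ring1 in FL and BM of the transcript table too, as given above. Pcgf2 exceeded Bmi1, at 30.6% and 19.1% of the PCGF family, where Bmi1 led in the other 3 columns. Cbx2 took 43.7% of the sum of the 4 CBX genes and Cbx7 took 2.03%, and Phc2 took 78.3% of its trio. The catalytic pair stood between the other columns, with Ezh2 at 46.2 FPKM, Ezh1 at 10.1 FPKM and an Ezh1 share of 17.98%. Of the remaining PRC2 genes Suz12 was at 21.3 FPKM and Eed at 22.4 FPKM in this column, each lower than in any other column.

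**Figure D5:**
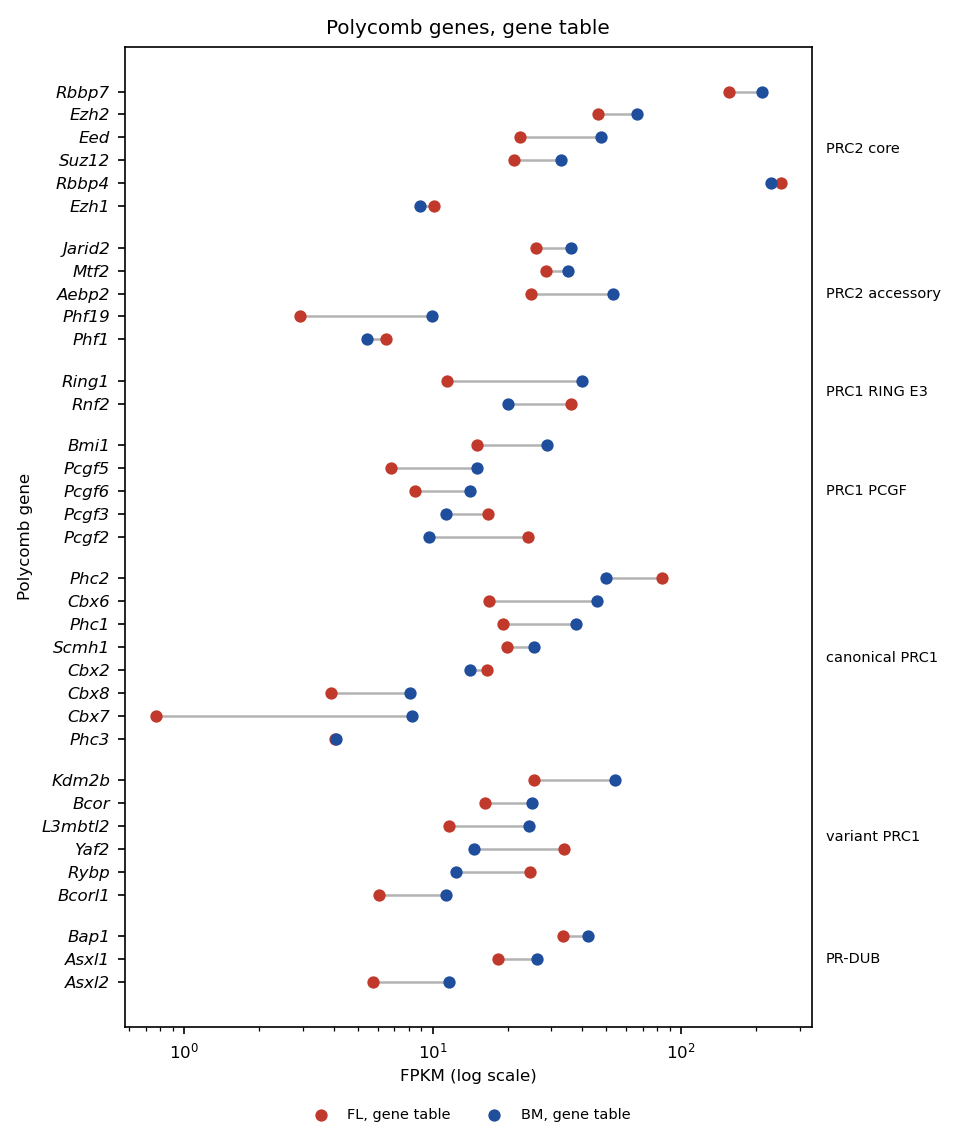
FPKM (log axis) of the 35 Polycomb genes in the FL (red) and BM (blue) columns of the gene table, grouped by complex. Cbx7 has the widest gap (0.770 and 8.29 FPKM), and Rnf2, Pcgf2, Rybp and Yaf2 lie to the right in FL.

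Target genes were also above 1 FPKM more often in that column. Of 23 found in the gene table, 5 were expressed, each reaching 1 FPKM in FL. All 5 were at least 2-fold lower in BM, beside 23.6% of 13834 expressed genes. Only Gata4 also reached 1 FPKM in BM, at 5.59 FPKM in FL against 1.01 in BM. The others were counted as expressed through FL alone, so a lower value in BM followed from that filter. Among them Gata6 was at 11.5 FPKM in FL against 0.0935 in BM, and Wt1 at 2.71 FPKM in FL and listed at 0 in BM. Cdkn2a was at 0.0913 FPKM in FL and listed at 0 in BM. The endothelial and stromal markers given above were high in the same column.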

How the data were processed

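Gene expression in sorted HSCs was measured by sequencing of polyadenylated RNA. The authors deposited FPKM values in a gene table and a transcript table, each with 1 column headed FL and 1 headed BM and no replicate numbers, read here as the authors' means. Per the submitters' processing notes, TopHat, Cufflinks, featureCounts, Subread and edgeR were among the tools and mm9 was the build, with no role or version. The sources used here name no annotation release. Columns are named by their headers, BM for the adult group and FL for fetal liver from the labels' protocol, although BM of the gene table carries fetal HSC-associated genes and its header may be wrong. The molecule label says genomic DNA, whereas the protocol describes RNA.

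Transcripts were linked to genes by identifier through GENCODE M21 (76512 of 87641 linked, and the rest carried 10.4% of the FPKM in FL and 10.9% in BM), and summed per gene. Relative log2 ratios used a pseudocount of 0.1 FPKM and centring on the median gene, so they understate differences of low genes. Genes at 1 FPKM or more in either column were called expressed. The ratio calculation was tested on simulated data. Members, lists, paralogue families and alternatives were chosen with earlier results of these data known. The rule for named genes took all 35 members, up to 4 expressed genes of each other pathway list by the largest absolute ratio, any gene of a paralogue family, up to 3 genes of a marker list by the highest FPKM, and moving transcripts. A single item of these lists is not reported here, and the CBX shares are over the 4 members. Cdkn2a, the marker genes listed at 0, the overlapping neighbours, other transcripts, promoters, motifs and the restriction to coding transcripts were chosen after the data had been seen. Calculations used Python 3.11.15, numpy 2.4.6 and pandas 2.3.3, and figures matplotlib 3.10.9.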

Additional observations from a re-analysis of the deposited data

How the results depend on the processing

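Neither leaving out a replicate nor a test was possible, because each column is a single deposited value per feature. No paired analysis was possible because the columns carry no replicate numbers. The counts of 3 higher members and 1 lower member did not change with a pseudocount of 0.01, without centring, with upper-quartile scaling, without a filter on low values, at 5 FPKM or more, with the gene table's BM column in place of FL, and without Rbbp4 and Aebp2, the last chosen after seeing the data. With a pseudocount of 1 FPKM the lower count was 0, as Cbx2 came to -0.92. With the gene table's BM column in place of FL, Cbx2 came to -0.97 and Rbbp4, whose transcript sum is incomplete, became the lower member at -5.03. At 1.5-fold, 5 members were higher and 3 lower. With only the most abundant transcript of each gene the median ratio was 0.16, and 4 members were higher, Ezh1 having joined at 1.22. With coding transcripts only, also 4 were higher. Subunit shares depended most on summing: with the most abundant transcript only, 24 of 33 differences in share moved by at least 2 percentage points, that of Ezh1 from 8.70 to 20.5, of Phf1 in its trio from 10.7 to 22.5, of Cbx7 from 11.9 to 7.89 and of Bcor from -0.83 to 14.8 points. With the gene table's BM column in place of FL, 7 of 33 did. Over all alternatives run, the ratios spanned 1.39 to 1.60 for Phf1, 1.28 to 1.40 for Cbx7, 1.09 to 1.57 for Phc3 and 0.60 to 1.22 for Ezh1. Of 33 members that matched the check column within 1.5-fold, 32 did so under the stricter limit.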
